A study of Mus musculus with 8 samples.

Results

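The 10 genes described here, measured in the gastrocnemius (GAS), belong to the insulin-like growth factor (IGF) system and its imprinted partner locus. They are the growth factors *Igf2* and *Igf1*, the long non-coding RNA *H19*, the receptors *Igf1r* and *Igf2r*, and the binding proteins *Igfbp3*, *Igfbp4*, *Igfbp5*, *Igfbp6* and *Igfbp7*. The genes were chosen by name, as part of the IGF genes together with *H19*, in a table of 22206 probe sets. A probe set is the group of short probes that measures 1 gene on the array. Other IGF genes of the table, such as *Igfbp1* and *Igfbp2*, are in a list of 27 other pathway genes treated below. Each of the 10 genes had 1 probe set, so the intended choice of the brightest probe set per gene decided nothing. All 10 were marked as expressed in both groups by the authors' software, as were 95.6% of all probe sets.

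The muscles came from male C57/Bl6j mice that were 22 weeks old. In each mouse the GAS of one leg had been injected 3 months earlier with an adeno-associated virus (AAV) of serotype 1 carrying AAV sh-RNA MYTHO, a short hairpin RNA against the autophagy gene *Mytho* (MYTHO-KD), and the contralateral GAS had received AAV sh-RNA scrmb, a scrambled hairpin (scramble). There were 4 Clariom S Mouse arrays per group, 8 in all, made from total RNA of whole muscle pieces. Both hairpins were driven by the U6 promoter, which is not restricted to muscle fibres, so any cell that took up the virus could express them. Both groups carried AAV and a hairpin, and muscle without virus was not analysed here. The comparison asks how the transcripts of muscle differ when *Mytho* is depleted over months. The table analysed holds 1 average and 1 standard deviation (SD) per group on the log2 scale, so the values of the single muscles, their overlap between groups and the pairing of legs are not known here, and every level below is the authors' average ± the authors' SD over 4 arrays.

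IGF1 and IGF2 are secreted growth factors that signal through the IGF1 receptor, a tyrosine kinase at the cell surface, and so promote growth, survival and differentiation of muscle. The IGF2 receptor carries IGF2 to the lysosome for breakdown, and the IGF binding proteins hold the factors outside cells and can block or aid their action. *Igf2* and *H19* are neighbours on chromosome 7 with opposite imprints: *Igf2* is transcribed from the paternal copy and *H19* from the maternal copy, and enhancers beyond *H19* serve both. Both genes are abundant in fetal muscle and fall after birth, and both are known to be raised again in regenerating muscle.

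The depletion was visible in the targeted gene. *Mytho*, listed as *D230025D16Rik* (chr8:105225145-105253053, mm10), averaged 7.71 ± 0.66 in MYTHO-KD and 10.02 ± 0.37 in scramble (log2), which left 20.2% of the scramble signal (limma's moderated test, adjusted p = 0.0138). Over the whole table the averages ran from 3.18 to 19.93, the median SD was 0.27 in each group and the median difference was -0.01 on the log2 scale. A probe set is called here when it differed by at least 2-fold with an unadjusted p under 0.05, the threshold of the study's methods. By this rule 191 probe sets, or 0.86% of the table, were higher in MYTHO-KD and 57, or 0.257%, were lower.

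*Igf2*, *H19* and *Igfbp5* stood apart from the other IGF genes. *Igf2* and *H19* were several-fold higher in MYTHO-KD muscle, *Igfbp5* was 2.33-fold lower, and the other 7 genes differed by 0.02 to 0.59 in size on the log2 scale. *Igf2* and *H19* are why these genes were gathered, so their values are given as a description, without a p or an interval. They are left out of the counts of calls. Of the other 8 genes, 0 were called higher and 1, *Igfbp5*, was called lower (limma's moderated test), against the shares of 0.86% and 0.257% of all probe sets and 1.12% in either direction. By an adjusted p under 0.05 the counts were 0 higher and 1 lower, against 0.18% and 0.0946%, and by an unadjusted p under 0.05 they were 1 and 1, against 6.48% and 5.52%. With a limit of 1.5-fold in place of 2-fold, 2 were called, against 5.8%. These genes too were chosen with earlier results of these data known, so nothing is read from the counts. The median difference of these 8 genes was 0.25, with 5 above 0 and 3 below. Over all 22206 probe sets the median was -0.01, with 10416 above 0 and 11412 below. This too is a description.

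**Figure D1:**
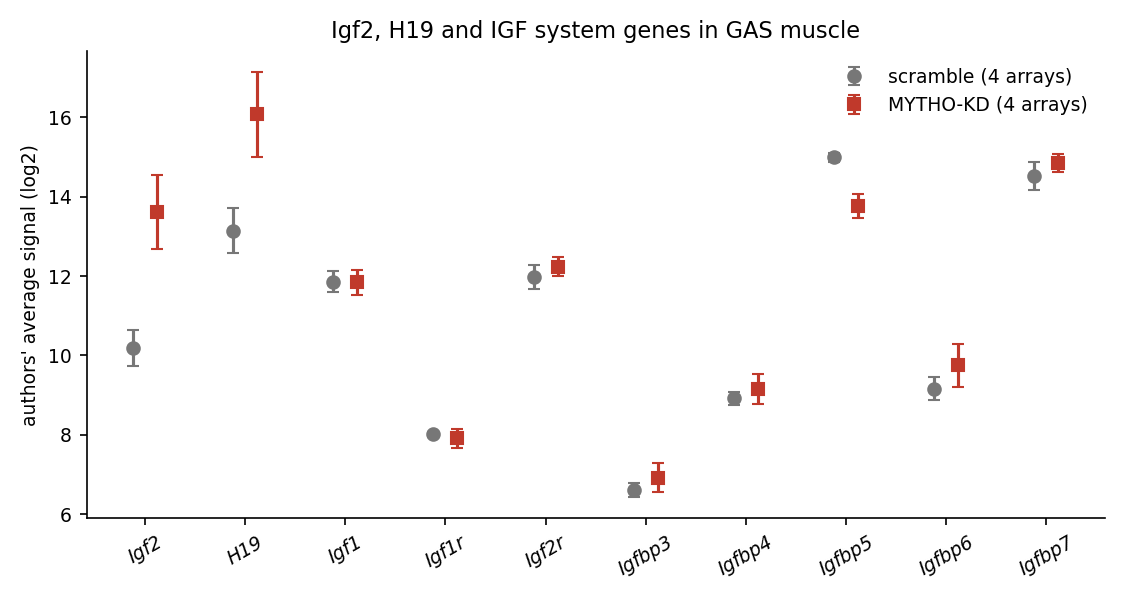
The authors' average signal (log2, vertical axis) of the 10 genes in scramble (grey circles) and MYTHO-KD (red squares), with bars of 1 SD of the authors over 4 arrays. *Igf2* stands at 10.19 in scramble and 13.62 in MYTHO-KD and *H19* at 13.14 and 16.07. These 2 genes are why the set was gathered. *Igfbp5* stands at 14.99 in scramble and 13.77 in MYTHO-KD, and the other 7 genes differed by at most 0.59 in size. Heights of different genes come from different probes and are not comparable with each other.

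The *Igf2* probe set (chr7:142650766-142666816, minus strand, mm10) covers the whole gene, from which several transcripts start. RefSeq's table for GRCm38.p6, the same primary assembly as mm10, lists 4 starts for it. The array does not tell which of them the added RNA came from, so the 250 bases before the outermost start (start 1, chr7:142666817-142667066) and before the innermost start (start 4, chr7:142657497-142657746) are printed to show how unlike these control regions are, 5′ to 3′ on the minus strand with each CG dinucleotide, the site of DNA methylation, in capitals.
Igf2 start 1: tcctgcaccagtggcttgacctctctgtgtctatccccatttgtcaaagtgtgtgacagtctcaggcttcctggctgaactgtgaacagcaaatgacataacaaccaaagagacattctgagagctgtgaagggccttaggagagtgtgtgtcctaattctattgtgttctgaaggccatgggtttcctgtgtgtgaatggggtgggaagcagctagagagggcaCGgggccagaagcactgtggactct
Igf2 start 4: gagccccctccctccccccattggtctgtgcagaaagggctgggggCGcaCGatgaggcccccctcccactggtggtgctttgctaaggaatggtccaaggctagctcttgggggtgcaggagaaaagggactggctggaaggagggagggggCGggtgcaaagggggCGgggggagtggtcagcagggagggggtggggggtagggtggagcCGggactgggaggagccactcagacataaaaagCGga
The window of start 1 held 1 CG, those of starts 2, 3 and 4 held 10, 22 and 6, and the median over 32851 windows of this length was 6, with quartiles of 2 and 16. The letters CANNTG (an E-box, searched on both strands), which muscle regulatory factors bind, occurred in 66.2% of all windows, 2 times in that of start 1, at -213 and -161 from the start, and not in those of starts 2 to 4. GGGCGG, searched on both strands, occurred in 32.7% of all windows, in that of start 3 at -17 and in that of start 4 at -100 and -85. These matches describe the windows and do not show that a factor was bound.

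*Igf2* averaged 13.62 ± 0.93 in MYTHO-KD and 10.19 ± 0.46 in scramble. The difference of 3.43 on the log2 scale corresponds to 10.8-fold, and only 2 of 22206 probe sets had a larger rise. The SD of *Igf2* was 2.02 times as large in MYTHO-KD as in scramble, a ratio reached by 15.5% of all probe sets.

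*H19* shares its probe set with *Mir675*, the microRNA that is cut from it, and both are listed on the same row (chr7:142575529-142578146, minus strand, mm10). The probes cannot tell the long RNA from the precursor, and mature microRNAs are not measured by this array. The *Mir675* hairpin lies inside *H19* at chr7:142577064-142577147, and its mature arms are printed from RefSeq because they are the known products of this transcript, with the seed, bases 2 to 8, in capitals.
mmu-miR-675-5p: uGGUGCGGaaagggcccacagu
mmu-miR-675-3p: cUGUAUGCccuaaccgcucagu
The seeds of the arms differ. *H19* has no window in the promoter table.

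*H19* averaged 16.07 ± 1.07 in MYTHO-KD and 13.14 ± 0.57 in scramble. The difference of 2.93 (log2) corresponds to 7.62-fold and was the 9th largest rise in the table. The SD was 1.88 times as large in MYTHO-KD as in scramble. *Igf2* and *H19* lie 72.6 kb apart. The SD of MYTHO-KD was the larger one in 8 of the 10 genes, and in 6 of the 8 other than *Igf2* and *H19*, against 48.1% of all probe sets. In the marker lists below it was larger in 8 of 9 macrophage, 8 of 9 liver and 6 of 9 fibroblast markers. The counts were 7 of 12 for regeneration, 5 of 8 for muscle fibre and 2 of 7 for endothelial markers. A larger SD in MYTHO-KD was thus not particular to these genes.

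In bulk muscle, more RNA per cell cannot be told apart from more cells that express a gene, here and in every value below. Among 12 markers of regenerating muscle, 3 were called higher, against 0.86% of all probe sets. *Mymk*, which encodes the fusion protein myomaker and is listed by its older symbol *Tmem8c*, averaged 7.67 in MYTHO-KD and 5.9 in scramble (adjusted p = 0.0749). *Myh3*, the embryonic myosin heavy chain, was 1.27 higher on the log2 scale (unadjusted p = 0.0331, adjusted p = 0.366), and *Chrna1*, an acetylcholine receptor subunit, was also called (difference 1.07, adjusted p = 0.141). For markers of satellite cells and myoblasts the difference was 0.18 for *Pax7*, -0.04 for *Myf5*, -0.40 for *Myod1* and 0.21 for *Myog*. *Pax7* averaged 4.97 in MYTHO-KD and 4.79 in scramble, and *Myf5* 5.21 and 5.25. Both lay among the dimmest 30% of probe sets, whose mean of the 2 averages is under 5.715. At such levels a small difference does not show unchanged RNA. Other markers of the list differed by -0.01 (*Mymx*, listed as *Gm7325*), -0.10 (*Chrng*), 0.07 (*Cdh15*) and 0.16 (*Ncam1*) and were not called. *Chrng*, at 4.31 in MYTHO-KD and 4.41 in scramble, was among the dimmest too and was not marked as expressed in MYTHO-KD. The median of the list was 0.115. *Myh8* lies at the top of the scale, 19.93, in both groups, so no change could be read for it. Without *Myh8* the summed linear signal of the list was 1.32 times that in scramble. The part of these cells in the *Igf2* and *H19* values was not tested.

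*Igf1*, the liver and muscle growth factor that drives hypertrophy, differed little between the groups. Its probe set (chr10:87858265-87937047) averaged 11.84 ± 0.32 in MYTHO-KD and 11.86 ± 0.26 in scramble. The difference was -0.02 (SE 0.204, adjusted p = 0.986), and its 95% interval of -0.46 to 0.42 excludes a change of 2-fold in either direction. *Ins1* and *Ins2*, the insulin genes, which pancreatic beta cells express, differed by 0.16 (adjusted p = 0.788) and -0.10 (adjusted p = 0.916).

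The receptors did not pass the test. *Igf1r* (chr7:67952257-68233667), the signalling receptor of both factors, averaged 7.91 ± 0.25 in MYTHO-KD and 8.01 ± 0.06 in scramble, a difference of -0.10 with a 95% interval of -0.47 to 0.27 (adjusted p = 0.878). *Igf2r* (chr17:12682406-12769706), an imprinted gene whose product clears IGF2, averaged 12.24 ± 0.23 in MYTHO-KD and 11.98 ± 0.30 in scramble, a difference of 0.26 with a 95% interval of -0.17 to 0.69 (adjusted p = 0.66). The intervals of both receptors leave no room for a 2-fold change. *Insr* and *Insrr*, the insulin receptor and its relative, differed by 0.04 and -0.11.

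*Igfbp5* was the only binding protein gene called. IGFBP5 is the main binding protein that muscle cells secrete while they differentiate. Its gene (chr1:72857932-72874884, minus strand, mm10) has 1 start in the promoter table, and the 250 bases before it (chr1:72874866-72875115, GRCm38.p6, minus strand) are printed with CG in capitals because it was the one IGF gene of the 10 that was called lower.
Igfbp5: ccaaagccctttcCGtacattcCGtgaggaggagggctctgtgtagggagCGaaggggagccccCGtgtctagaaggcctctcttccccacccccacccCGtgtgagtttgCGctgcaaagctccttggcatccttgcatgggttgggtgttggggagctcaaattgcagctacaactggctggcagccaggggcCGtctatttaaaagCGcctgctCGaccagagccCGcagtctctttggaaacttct
The window held 10 CG and 1 match to CANNTG, at -77, and GGGCGG did not occur in it. The letters TATAAA, searched on both strands and held by 12.4% of all windows, were found in the windows of *Igfbp4* (at -28) and *Igfbp6* (at -148) and not in this one. The windows of *Igf1r*, *Igfbp3*, *Igf2r*, *Igfbp7* and *Igfbp4* held 42, 32, 27, 26 and 22 CG, those of *Igfbp6* and *Igf1* 7 and 5.

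*Igfbp5* averaged 13.77 ± 0.30 in MYTHO-KD and 14.99 ± 0.12 in scramble. The difference of -1.22 on the log2 scale (SE 0.182, 95% interval -1.62 to -0.82) corresponds to 0.429 of the scramble signal (adjusted p = 0.0277) and was the 24th largest fall in the table. The SD was 2.5 times as large in MYTHO-KD, a ratio reached by 9.92% of all probe sets. The neighbouring gene *Igfbp2*, which lies 5.5 kb away, differed by -0.08 (adjusted p = 0.908).

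*Igfbp6*, which binds IGF2 in preference to IGF1, had a difference above 0. Its probe set (chr15:102144186-102149512) averaged 9.75 ± 0.54 in MYTHO-KD and 9.16 ± 0.29 in scramble, a difference of 0.59 (SE 0.26, 95% interval 0.02 to 1.16) with an unadjusted p of 0.0426 and an adjusted p of 0.396, so it did not pass. The other 3 binding proteins had intervals that include 0, and their averages are given with MYTHO-KD first. *Igfbp3* (chr11:7206086-7213923), the main carrier of IGF in blood, averaged 6.92 ± 0.36 and 6.61 ± 0.18 (difference 0.31, adjusted p = 0.596). *Igfbp4* (chr11:99041244-99054392), an inhibitor of IGF action, averaged 9.16 ± 0.38 and 8.92 ± 0.16 (difference 0.24, adjusted p = 0.71). *Igfbp7* (chr5:77349240-77408045), a matrix protein with low affinity for IGFs, averaged 14.85 ± 0.22 and 14.52 ± 0.35 (difference 0.33, adjusted p = 0.571). *Igfbp3* and *Igfbp1*, 3.5 kb apart on chromosome 11, differed by 0.31 and 0.22.

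**Figure D2:**
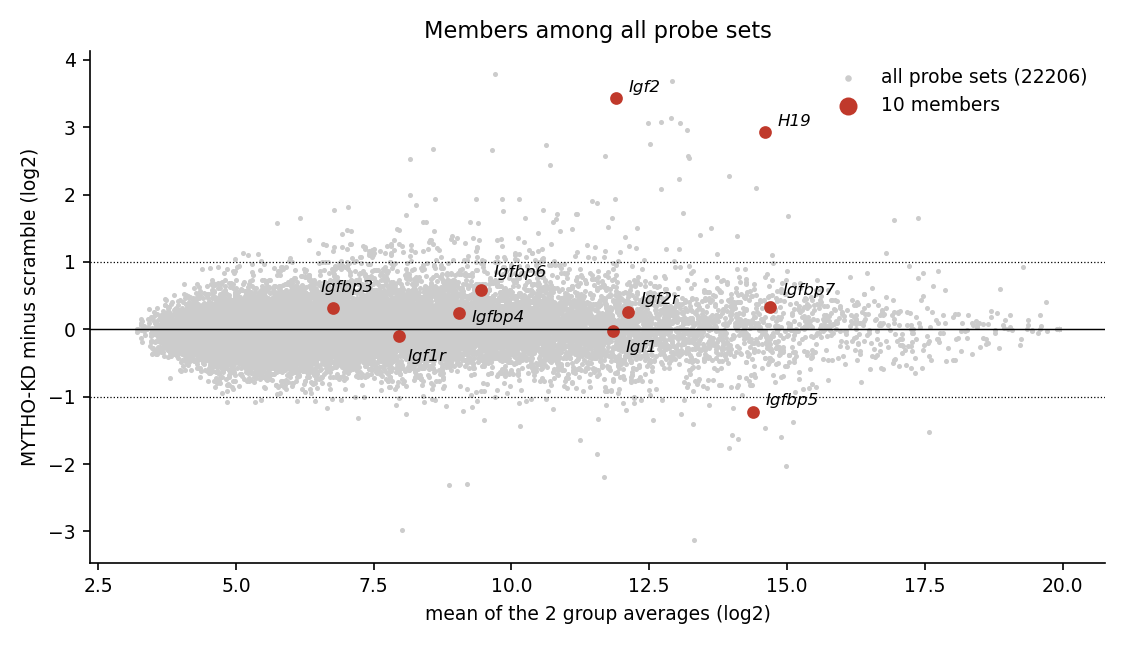
Difference between the groups (MYTHO-KD minus scramble, log2, vertical axis) against the mean of the 2 averages (log2, horizontal axis) for 22206 probe sets (grey) and the 10 genes (red), with dotted lines at 2-fold. *Igf2* and *H19* lie at the upper edge, at 3.43 and 2.93, *Igfbp5* lies below the lower line at -1.22, and the other 7 lie within the bulk of the table.

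A list of 27 other IGF pathway genes was all found on the array. Of these, 1 was called higher and 0 lower, against 0.86% and 0.257% of all probe sets; at an unadjusted p under 0.05 there were 4, against 12% of all probe sets in either direction, and at an adjusted p under 0.05 there were 0. The median difference was 0.01, and the differences ran from -0.42 to 1.16. The gene called was *Grb14*, whose product binds activated insulin receptors and restrains their signalling. It averaged 8.2 ± 0.45 in MYTHO-KD and 7.04 ± 0.66 in scramble (difference 1.16, SE 0.317, adjusted p = 0.162). Its imprinted relative *Grb10* differed by 0.37 (adjusted p = 0.48), and *Irs1* and *Irs2*, the docking proteins of both receptors, by 0.24 and -0.09.

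Among the 6 proteases and inhibitors that set how much IGF the binding proteins release, *Htra1*, a secreted serine protease that can cut IGFBP5, averaged 8.53 ± 0.31 in MYTHO-KD and 7.69 ± 0.40 in scramble (difference 0.84, unadjusted p = 0.00326, adjusted p = 0.16). *Stc2*, which encodes an inhibitor of pappalysins, averaged 5.07 in MYTHO-KD and 4.53 in scramble (difference 0.54, limma's moderated test, unadjusted p = 0.028, adjusted p = 0.344). Neither passed the adjusted threshold. *Pappa* and *Pappa2*, the pappalysins themselves, differed by -0.26 and -0.06. *Stat5b*, the transcription factor by which growth hormone induces *Igf1*, averaged 10.78 ± 0.22 in MYTHO-KD and 11.2 ± 0.18 in scramble (difference -0.42, unadjusted p = 0.0326, adjusted p = 0.364), and *Ghr*, the growth hormone receptor, differed by 0.01. *Igf2bp1*, which encodes an RNA-binding protein named for its binding of *Igf2* message, had the largest difference of its list of 3. It averaged 4.5 in MYTHO-KD and 4.12 in scramble (difference 0.38, limma's moderated test, adjusted p = 0.491). *Stc2*, *Pappa2* and *Igf2bp1* lay among the dimmest 30% of probe sets, with a mean of the 2 averages under 5.715, so little is read from their differences.

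**Figure D3:**
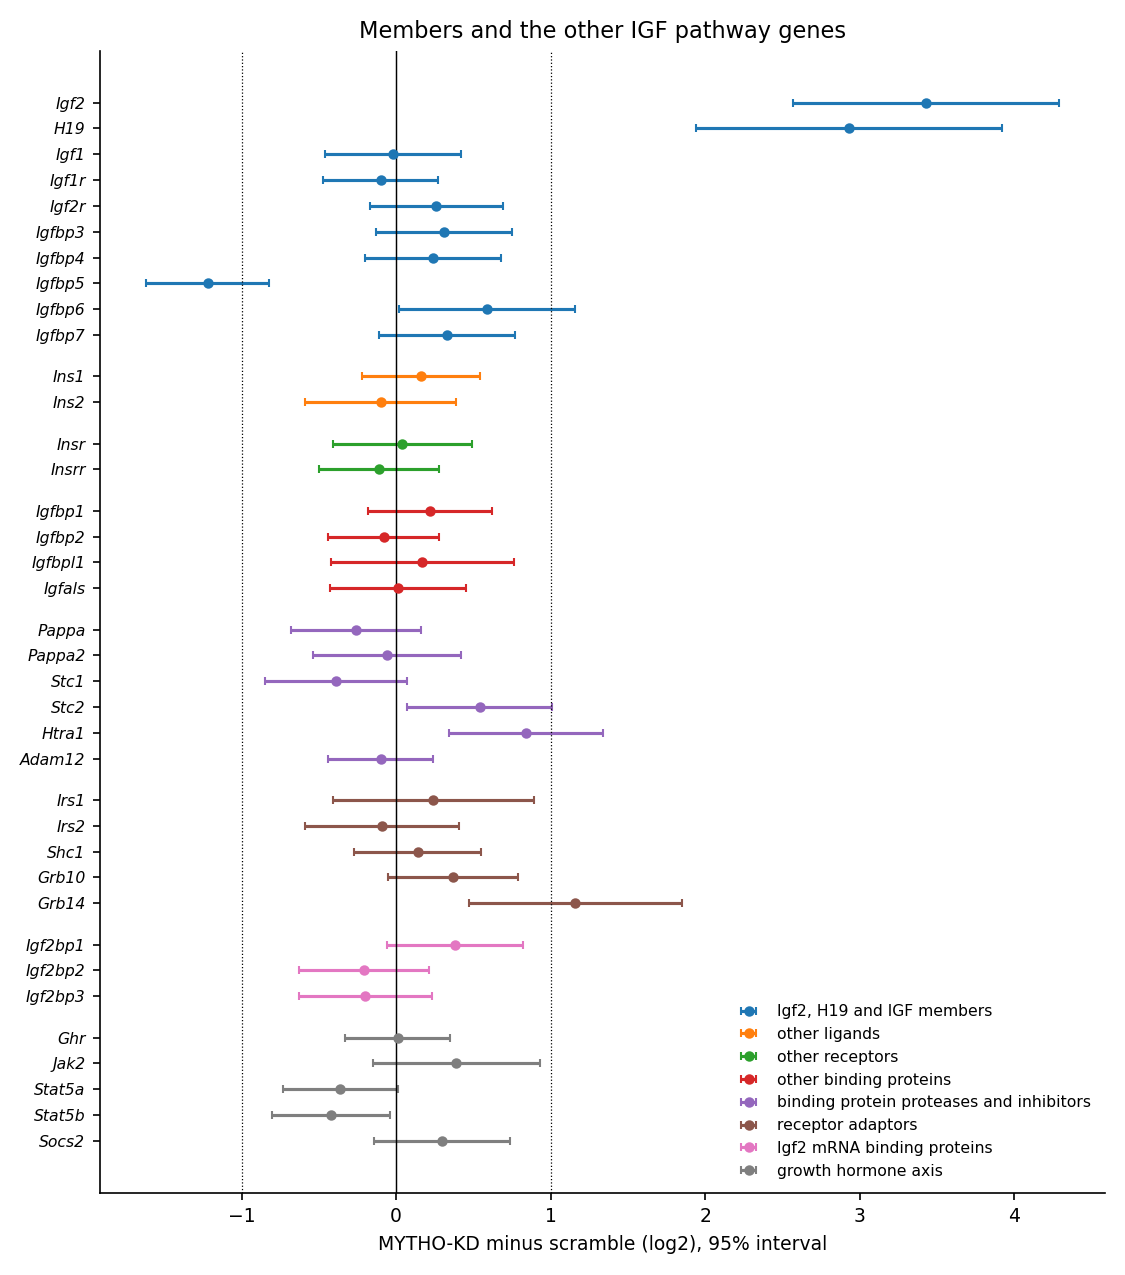
Difference between the groups (MYTHO-KD minus scramble, log2) with its 95% interval from the moderated variance for the 10 genes (blue) and the 27 other pathway genes, coloured by role, with dotted lines at 2-fold. Besides *Igf2*, *H19* and *Igfbp5*, *Grb14* at 1.16 is the one point beyond a dotted line. The intervals drawn for *Igf2* and *H19* are not a test, because these genes are why the set was gathered.

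The genes around *Igf2* and *H19* had differences of at most 0.45 in size on the log2 scale. Within 500 kb of either gene the table has 27 other probe sets, of which 0 were called (limma's moderated test), 1 had an unadjusted p under 0.05 and 0 an adjusted p under 0.05, against 1.12%, 12% and 0.275% of all probe sets. Their differences ran from -0.45 to 0.20 with a median of -0.06. *Ins2*, 11.8 kb from *Igf2*, is given above, and *Mrpl23*, a mitochondrial ribosomal protein gene 34.8 kb from *H19*, differed by -0.22 (adjusted p = 0.805). *Kcnq1*, an imprinted potassium channel gene, averaged 5.2 in MYTHO-KD and 5.62 in scramble and was the one at an unadjusted p under 0.05 (limma's moderated test, adjusted p = 0.316). The lowest difference, -0.45, was shared by the predicted genes *Gm2391* and *Gm10153* (adjusted p = 0.592 and 0.651). *Tnni2* and *Tnnt3*, the fast troponin genes, averaged 19.52 to 19.73 in the groups, against 19.93 at the top of the scale, which bounds the rise that could be measured for them. *Kcnq1*, *Ascl2*, *Th*, *Trpm5*, *Syt8*, *Krtap5-3* and *Krtap5-5* lay among the dimmest 30% of probe sets, with a mean of the 2 averages under 5.715. At such levels a small difference does not show unchanged RNA.

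**Figure D4:**
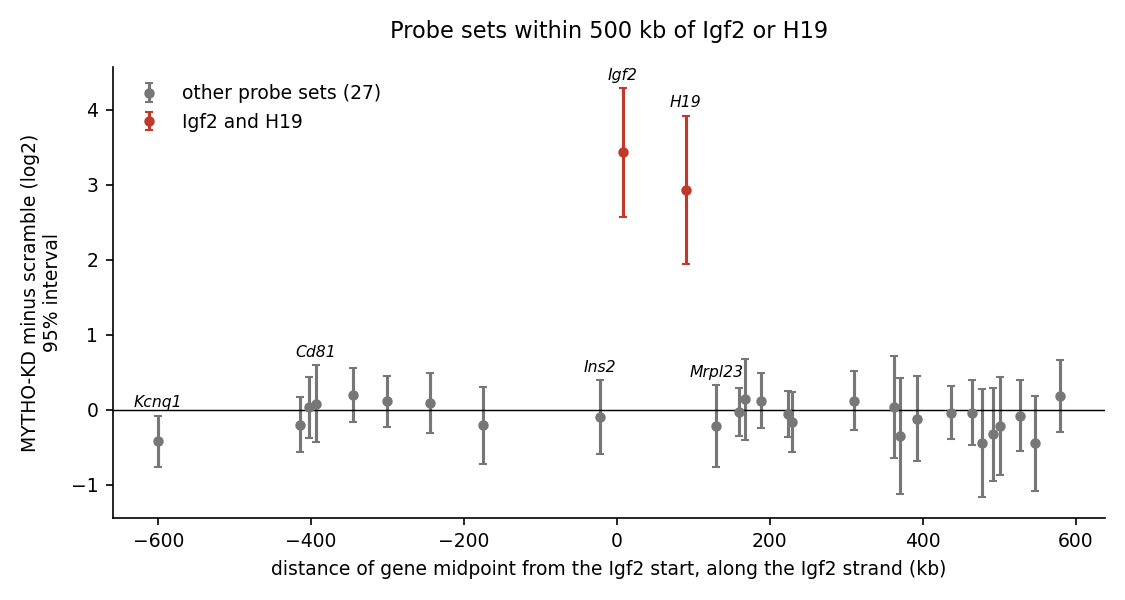
Difference between the groups (MYTHO-KD minus scramble, log2, with 95% interval) for *Igf2* and *H19* (red) and the 27 other probe sets within 500 kb of them (grey), by the distance of the gene's midpoint from the *Igf2* start in kb. Every grey point lies between -0.45 and 0.20, while *Igf2* and *H19* stand at 3.43 and 2.93. The intervals of the red points are not a test, because *Igf2* and *H19* are why the set was gathered.

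None of 11 genes that set or keep imprints was called (limma's moderated test), 2 were lower at an unadjusted p under 0.05 and 0 at an adjusted p under 0.05, against 1.12% called, 5.52% and 0.0946% of all probe sets. The 2 were *Zfp445*, a zinc finger protein that binds imprinted control regions, at 9.53 in MYTHO-KD and 10.12 in scramble (difference -0.59, unadjusted p = 0.0156, adjusted p = 0.287), and *Ctcf*, the insulator protein that binds between *Igf2* and *H19*, at 9.87 ± 0.06 in MYTHO-KD and 10.25 ± 0.28 in scramble (difference -0.38, unadjusted p = 0.0498, adjusted p = 0.416). The list's median was -0.11, against -0.01 for all probe sets. The list of reported targets of the *H19* microRNA holds 4 genes. *Igf1r* is given above, *Smad1* and *Smad5*, which carry signals of bone morphogenetic proteins, differed by 0.13 and 0.24, and *Cdc6*, a DNA replication factor, had the largest difference, -0.28 (adjusted p = 0.633). None was called and none had an unadjusted p under 0.05, against 1.12% and 12% of all probe sets. With 4 genes nothing is read from this.

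Markers of other cell types moved between the same muscles. All 9 macrophage markers had a difference above 0, with a median of 0.73. Of these, 6 were higher at an unadjusted p under 0.05 (6.48% of all probe sets) and 3 were called higher (0.86%), and the summed linear signal of the list was 2.42 times that in scramble. The leading ones were *Cd68*, a lysosomal protein of macrophages, with a difference of 2.53 (adjusted p = 0.0182), and *Lyz2*, lysozyme, with 1.94 (adjusted p = 0.0277). All 9 fibroblast markers had a difference above 0 as well, with a median of 0.72. Of these, 4 were higher at an unadjusted p under 0.05 and 3 were called higher, against the same shares of all probe sets, and the summed signal was 1.29 times that in scramble. *Lum*, the proteoglycan lumican, differed by 1.49 (adjusted p = 0.0443) and *Col3a1*, a fibrillar collagen, by 1.43 (adjusted p = 0.102).

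Of 7 endothelial markers 0 were called (limma's moderated test) and 2 had an unadjusted p under 0.05, against 1.12% and 12% of all probe sets; *Kdr*, a receptor for vascular endothelial growth factor, differed by 0.75 (adjusted p = 0.19) and *Eng*, endoglin, by 0.64 (adjusted p = 0.364), and the summed signal was 1.4 times that in scramble. Of 9 liver markers, 8 had a difference above 0 and 1, *Alb*, was called higher, against 0.86% of all probe sets. The list's median was 0.35, and its summed signal was 2.98 times that in scramble with *Alb* and 1.35 times without it. *Alb*, serum albumin, averaged 10.98 ± 2.28 in MYTHO-KD and 8.32 ± 1.34 in scramble (adjusted p = 0.291), and *Serpina1a*, a serum protease inhibitor, differed by 0.91 (adjusted p = 0.717). Among the 8 muscle fibre markers 0 were called and 2 had an unadjusted p under 0.05 (limma's moderated test), against 1.12% and 12% of all probe sets, namely *Mb*, myoglobin, with a difference of 0.93 (adjusted p = 0.0754) and *Myh1*, a fast myosin heavy chain, with 0.59 (adjusted p = 0.23). *Acta1*, *Myh4* and *Atp2a1* stood at the top of the scale, 19.93, in both groups, so no change could be read for these 3. The fibre markers were thus present, as the label of the tissue says. The part of these cell types in the values of *Igf2*, *H19* and *Igfbp5* was not tested.

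**Figure D5:**
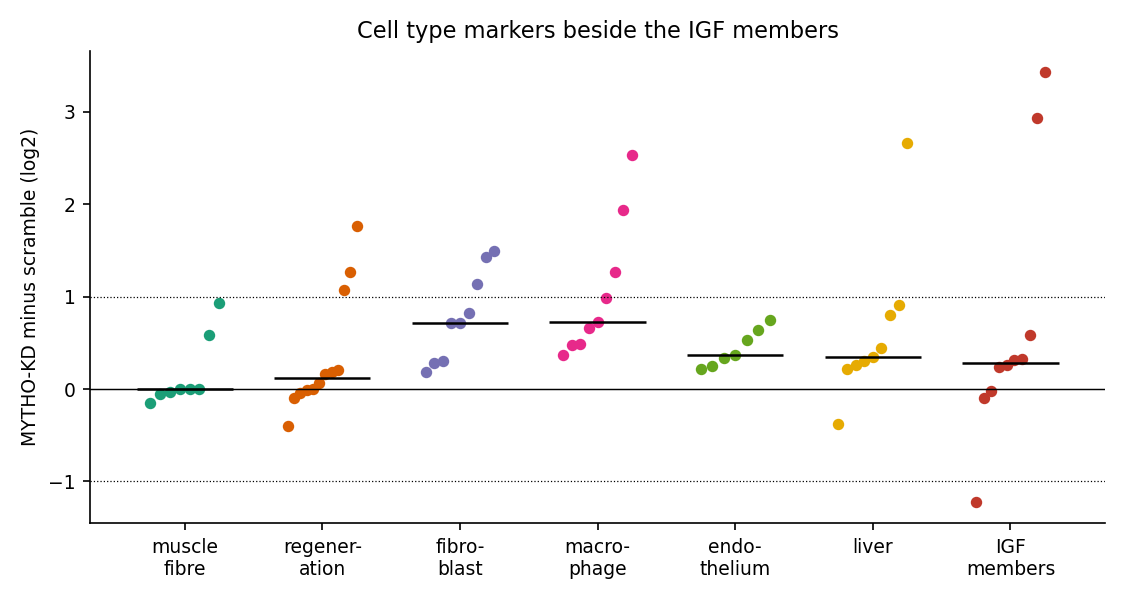
Difference between the groups (MYTHO-KD minus scramble, log2, vertical axis) for each marker of 6 cell types or states and for the 10 IGF genes, 1 point per gene, with a black line at each list's median and dotted lines at 2-fold. The medians of the fibroblast and macrophage markers are 0.72 and 0.73, that of the regeneration markers is 0.115 and that of the muscle fibre markers is 0. The fibre median rests on *Acta1*, *Myh4* and *Atp2a1*, which stood at the top of the scale in both groups, so it does not show unchanged RNA.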

How the data were processed

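Total RNA of GAS muscle was hybridized to Clariom S Mouse arrays, 4 per group. Normalization by the authors used SST-RMA in Transcriptome Analysis Console 4.0.1 at its defaults; the submitters' processing notes also name RMA in Affymetrix Expression Console and mm10. The deposited table has 28 columns: the authors' average (log2) and SD of each group, flags for expression, annotation, and the authors' fold change, p-value and false discovery rate, which were not used. No column of single arrays was in it, whether the averages are plain means or Tukey biweights is not stated, and numbers use a decimal comma.

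Differences (log2) were taken as MYTHO-KD minus scramble. limma 3.58.1 in R 4.3.3 gave the moderated test from averages and SDs: each probe set's mean of the 2 group variances, with 6 residual degrees of freedom, was shrunk by squeezeVar (prior SD 0.284, prior degrees of freedom 5.85), with two-sided p and Benjamini-Hochberg adjustment over 22206 probe sets. The legs of a mouse were treated as separate samples. The method was tested on simulated data. There, 4.95% of unchanged probe sets had an unadjusted p under 0.05 with plain means and 7.22% with biweights. False calls by the 2-fold rule numbered 68 and 111. If the averages are biweights, the p-values given here are thus too low and more of the calls are false. Arrays have no sequencing depth, and 4 per group limit the precision.

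The 10 genes and the gene lists were chosen with earlier results of these data known. Genes named are the 10 members and *Mytho*, list genes and neighbours with an unadjusted p under 0.05 or the largest difference of their list, the 3 probe sets most like *Igf2* and *H19*, and the 2 most different markers of each cell type. Other list genes are named for context, and *Alb* and *Myh8* were left out of sums, after their values were seen. Promoter windows and microRNAs are RefSeq's (GRCm38.p6), matched by symbol, with windows for 9 of the 10 genes. The alternatives are given in the closing section.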

Additional observations from a re-analysis of the deposited data

How the results depend on the processing

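No paired analysis was possible because the table analysed holds group averages, and for the same reason the leave-one-out runs were not made. Of the 8 genes other than *Igf2* and *H19*, *Igfbp5* stayed called under all 11 other settings, and *Igfbp6* (0.59) was called too with a limit of 1.5-fold. The differences of *Igf2* ran from 3.38 to 3.44, those of *H19* from 2.92 to 2.94 and those of *Igfbp5* from -1.22 to -1.21. Most settings do not change the averages, so these narrow ranges are not a test of the differences. The adjusted p of *Igfbp5* ran from 0.00318 to 0.344. It was above 0.05 without moderation (0.132) and with unequal variances (0.344), as was that of *Mytho* (0.173 and 0.363, range 0.0025 to 0.363). The called count of the 27 other pathway genes was 1 in the main setting, 2 with a limit of 1.5-fold (*Grb14* and *Htra1*), 0 with an adjusted p under 0.05 and no limit on the fold, and 0 with 2-fold and an adjusted p under 0.05. That of the imprint genes went from 0 to 1 with a limit of 1.5-fold (*Zfp445*). The differences of *Mytho* and of the 10 genes changed sign under none of the settings. Settings that require expression in both groups, or 2-fold with an adjusted p, were chosen after seeing the data.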

Other observations

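The probe sets whose pair of averages lay nearest to that of *Igf2* over the 2 groups, by Euclidean distance on the log2 scale, were 3 of the major urinary protein family: that listed as *Mup8*, *Mup9*, *Mup2* and *Mup1* (distance 0.67, difference 2.58), that listed as *Mup2* and *Mup1* (0.85, difference 3.07) and *Mup12* (0.98, difference 2.75). Their adjusted p were 0.278, 0.322 and 0.341 in this order (limma's moderated test). Genes of this family are alike in sequence and can share probes. The SDs of the first were 2.03 in MYTHO-KD and 1.47 in scramble, against 0.93 and 0.46 for *Igf2*. Nearest to *H19* were *Ankrd2*, a stretch-responsive muscle ankyrin repeat gene (distance 0.63, difference 2.10, adjusted p = 0.0754), *Mt1*, a metallothionein (1.03, difference 2.28, adjusted p = 0.0742), and *Pdlim1*, a Z-disc adaptor (1.06, difference 1.68, adjusted p = 0.134). *Igf2*, at 3.43, and *H19*, at 2.93, each had a larger difference than the 3 probe sets nearest to it. As they ranked 3rd and 9th among all rises, few probe sets could exceed them, and nothing is read from this. The distance is between signals of different probes, which depend on the probes as well as on the RNA, and it rests on 2 averages per probe set, so it ranks signals only.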
